A study of Homo sapiens with 6 samples.

Results

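The spectrin and ankyrin membrane skeleton is described here through 9 genes of the 61852 in the deposited count table: the spectrins SPTAN1, SPTBN1 and SPTB, the ankyrin ANK1, protein 4.1 (EPB41), protein 4.2 (EPB42), alpha-adducin (ADD1), dematin (DMTN) and tropomodulin 3 (TMOD3). The genes were taken by name and not by their values. They were divided into 5 whose products are best known from the red cell (SPTB, ANK1, EPB41, EPB42, DMTN) and 4 that most tissues use (SPTAN1, SPTBN1, ADD1, TMOD3). The RNA came from MEG-01, a human megakaryoblastic cell line derived from a chronic myeloid leukaemia, and was sequenced after poly(A) selection. In 3 libraries the cells carried the hairpin sh2-MELK, aimed at the kinase MELK, and in the other 3 the control vector pLKO.1. The submitters call the 3 of each condition independent biological replicates, and all 6 share the batch label F5. The knockdown rests on a single hairpin in a single line, and whether each replicate had its own transduction is not given in the sources used here.

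Spectrin is a long, flexible protein made of an alpha and a beta chain that pair side by side and then join end to end into tetramers. The tetramers are tied to short actin filaments at junctions held by protein 4.1, adducin, dematin and tropomodulin, and to the membrane through ankyrin and protein 4.2. SPTB is the beta chain of red cells, whereas other cells mostly use SPTAN1 with SPTBN1. In megakaryocytes, the platelet precursors, the spectrin network underlies the internal membrane system from which proplatelets are drawn.

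With MELK knocked down, the 3 spectrin members rose together, SPTAN1 the most, while ANK1, DMTN and EPB41 fell. The windows around the transcription starts of the 3 spectrins and of EPB41 are shown so that genes that rose and a gene that fell can be read side by side. Each runs 5′ to 3′ on the gene's own strand from 250 bases before to 50 bases after the first start that RefSeq lists on GRCh38.p14. The windows are chr9:128552337-128552636 (+ strand) for SPTAN1, chr2:54456077-54456376 (+ strand) for SPTBN1, chr14:64879858-64880157 (− strand) for SPTB and chr1:28886850-28887149 (+ strand) for EPB41. Capitals mark matches, on either strand, to the GATA letters AGATAA or AGATAG or TGATAA or TGATAG, or to the KLF-type letters CCNCNCCC, and overlapping matches run together.
SPTAN1: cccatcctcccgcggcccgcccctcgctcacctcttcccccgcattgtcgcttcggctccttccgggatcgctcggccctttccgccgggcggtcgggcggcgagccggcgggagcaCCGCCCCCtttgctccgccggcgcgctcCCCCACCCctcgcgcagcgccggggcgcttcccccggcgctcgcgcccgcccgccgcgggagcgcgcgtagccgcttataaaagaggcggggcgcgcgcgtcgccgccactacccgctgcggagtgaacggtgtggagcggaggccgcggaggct
SPTBN1: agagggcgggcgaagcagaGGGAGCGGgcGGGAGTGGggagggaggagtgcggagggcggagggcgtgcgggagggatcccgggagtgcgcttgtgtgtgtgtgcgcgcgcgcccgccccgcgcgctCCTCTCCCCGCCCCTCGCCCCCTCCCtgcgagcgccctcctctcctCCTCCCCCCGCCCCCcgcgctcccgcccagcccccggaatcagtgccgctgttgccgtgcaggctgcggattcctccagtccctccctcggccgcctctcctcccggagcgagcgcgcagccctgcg
SPTB: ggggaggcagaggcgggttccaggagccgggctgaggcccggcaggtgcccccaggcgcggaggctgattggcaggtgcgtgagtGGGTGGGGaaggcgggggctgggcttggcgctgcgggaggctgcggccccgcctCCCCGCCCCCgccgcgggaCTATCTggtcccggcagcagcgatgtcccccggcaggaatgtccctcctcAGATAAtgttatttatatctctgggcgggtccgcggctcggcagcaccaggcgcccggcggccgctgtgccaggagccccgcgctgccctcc
EPB41: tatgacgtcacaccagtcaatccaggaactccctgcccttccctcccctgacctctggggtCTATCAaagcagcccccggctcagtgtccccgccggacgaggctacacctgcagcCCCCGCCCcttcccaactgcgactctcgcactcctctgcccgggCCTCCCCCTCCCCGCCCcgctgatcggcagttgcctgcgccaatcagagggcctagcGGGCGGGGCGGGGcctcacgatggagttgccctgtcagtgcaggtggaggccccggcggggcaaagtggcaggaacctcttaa
The SPTB window held 2 GATA matches and the EPB41 window 1, whereas the SPTAN1 and SPTBN1 windows held 0, so GATA letters stood beside both a gene that rose and a gene that fell. GATA letters were present in 25.0% of the 35116 promoter windows in the RefSeq table. All 4 windows held KLF-type letters, with 2 matches for SPTAN1, 9 for SPTBN1, 3 for SPTB and 6 for EPB41, and 56.2% of all windows held at least 1. SPTAN1 also held 1 match to the ETS letters CGGAAG, which 19.5% of windows held. SPTBN1 has a second listed start whose window (chr2:54558133-54558432) held 1 GATA match, while the second windows of SPTB and EPB41 held 0. These are matches of letters and no binding was measured.

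The libraries summed to between 18945176 and 20410845 counts in knockdown cells and between 20208255 and 21711313 in control cells. Across the 5038 genes averaging 500 or more counts, correlations of log2 values lay between 0.994 and 0.996 within groups and between 0.890 and 0.907 between them. In 35797 genes (57.9%) every value was 0, 1, 2, 10 or 100, each about equally often, so a number from these 5 appears to have been added to each count before deposit. Such a number has an SD of 38.9 counts, which is small beside the counts of most members and large beside those of EPB42, TMOD3 and MELK. MELK itself had 16, 124 and 26 counts in knockdown cells and 219, 206 and 238 in control cells. All 3 knockdown libraries were lower, with a log2 fold change of −1.98 ± 0.69 (SE; adjusted p = 0.104), which was −3.32 (adjusted p = 0.00271) without knockdown replicate 2 and −3.38 where the added number was modelled. Of 11 megakaryocyte markers, GP1BB and PF4 held nothing beyond the added values. ITGA2B, the platelet integrin alpha chain, was the highest of the list at 1061 ± 20.8 CPM (counts scaled to a common library size) in knockdown and 2024 ± 64.0 CPM in control cells (SD, n = 3 each), while PF4, a platelet granule gene, gave no measurable level.

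SPTAN1 (ENSG00000197694; chr9:128552558-128633662, GRCh38) encodes alpha-II spectrin, the alpha chain of most cells outside the red cell lineage. It had 4788, 4720 and 4334 counts in the knockdown libraries, against 1107, 1262 and 1114 in the control libraries. Every knockdown library lay far above every control library. Scaled for library size (TMM), SPTAN1 averaged 236 ± 6.72 CPM in knockdown and 58.0 ± 6.48 CPM in control cells (SD, n = 3 each), a 4.06-fold difference. Its log2 fold change was 2.02 ± 0.07 (SE), with an adjusted p of 7.36e-07 in edgeR's quasi-likelihood test, Benjamini-Hochberg adjusted over the 28303 genes tested.

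SPTBN1 (ENSG00000115306; chr2:54456285-54671445), the general beta chain that pairs with SPTAN1, had 4198, 4000 and 3566 counts in knockdown and 1395, 1503 and 1434 in control cells. The groups did not overlap. It averaged 200.2 ± 12.1 CPM in knockdown and 72.1 ± 5.19 CPM in control cells, a log2 fold change of 1.47 ± 0.06 (adjusted p = 1.71e-06). SPTB (ENSG00000070182; chr14:64746283-64879907), the beta chain of the red cell, had 3238, 3396 and 3005 counts in knockdown and 1698, 1574 and 1634 in control cells. Here too all knockdown libraries were the higher, and the red cell and general beta chains moved the same way. SPTB averaged 164 ± 4.76 CPM in knockdown and 81.5 ± 1.73 CPM in control cells, a log2 fold change of 1.01 ± 0.04 (adjusted p = 7.18e-07). Of the 14796 exonic bases of SPTB, 23.0% are shared with other genes, mainly PLEKHG3 on the opposite strand, and the strand setting of the counting is not given in the sources used here. PLEKHG3 itself fell, with 40.2 ± 1.59 CPM in knockdown and 62.6 ± 6.36 CPM in control cells (log2 fold change −0.64 ± 0.08, adjusted p = 0.000531). How the shared bases bear on the counts of SPTB was not tested.

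**Figure D1:**
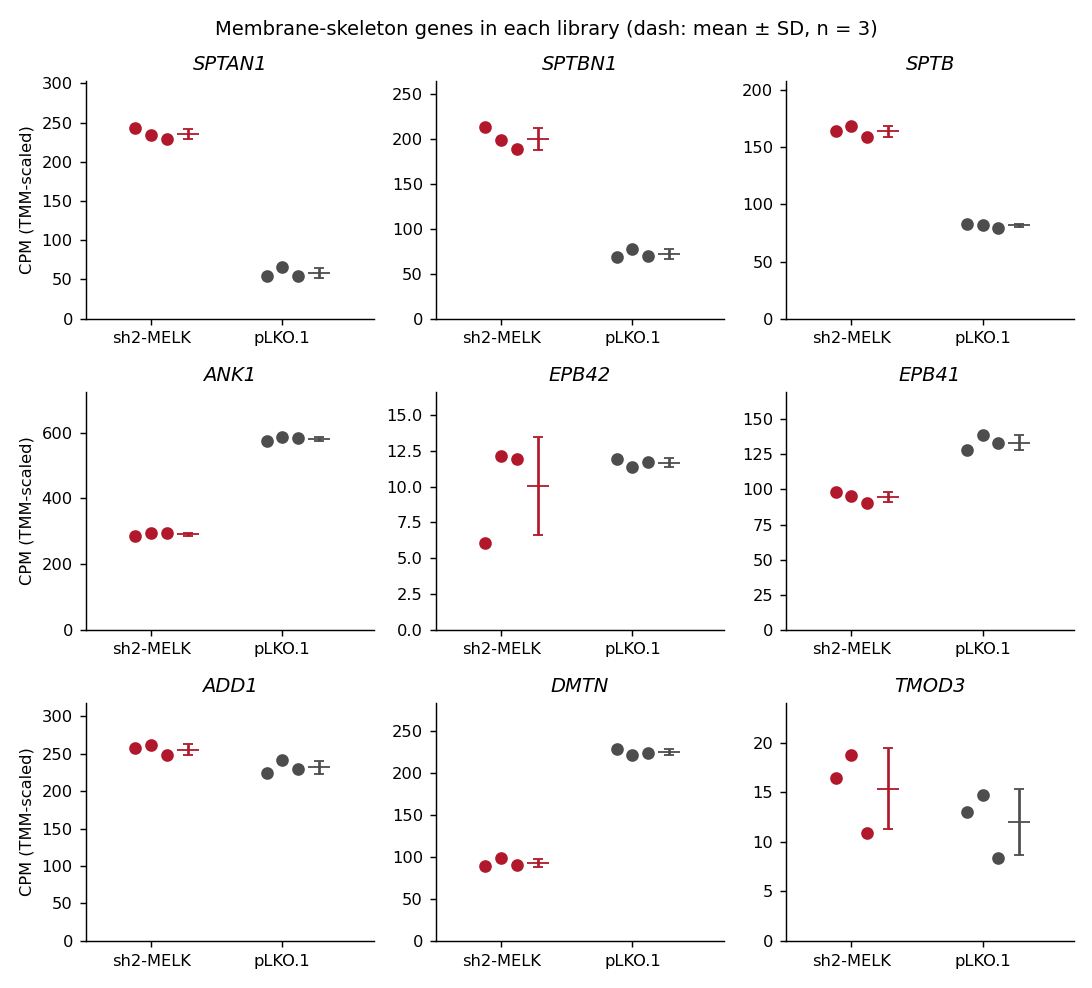
Level of each of the 9 genes in each library, in CPM after TMM scaling (vertical axes, each starting at 0), for sh2-MELK (red, left) and pLKO.1 (grey, right); dashes with bars are the mean ± SD of 3 libraries. SPTAN1 averaged 236 CPM in knockdown and 58.0 CPM in control cells, ANK1 291 and 582 CPM in the same order of groups, while the libraries overlap for EPB42 and TMOD3.

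ANK1 (ENSG00000029534; chr8:41653220-41896762) encodes ankyrin-1, the adaptor that fastens beta spectrin to the anion exchanger in red cells. It had 5632, 5917 and 5536 counts in knockdown and 11746, 11298 and 11977 in control cells, with all 3 knockdown libraries below every control library. ANK1 averaged 291 ± 4.57 CPM in knockdown and 582 ± 5.93 CPM in control cells, so its log2 level fell by 1.00 ± 0.03 (adjusted p = 1.29e-07). The ankyrin thus fell while the beta chains SPTBN1 and SPTB rose. EPB42 (ENSG00000166947; chr15:43197227-43221125) encodes protein 4.2, which strengthens the link between ankyrin and the anion exchanger. It had 120, 244 and 225 counts in knockdown and 244, 219 and 241 in control cells, so only knockdown replicate 1 stood below the rest. The fitted log2 fold change was −0.22 ± 0.26 (adjusted p = 0.758), and 0.04 without that library. With the added number modelled, EPB42 was estimated at 132 reads in knockdown and 226 reads in control cells, a log2 fold change of −0.78 (95% interval −0.98 to −0.60, adjusted p = 0.0230), so for this gene the call depends on how the added number is treated.

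Among the proteins of the actin junction, DMTN (ENSG00000158856; chr8:22048995-22082527) encodes dematin, which bundles actin and links the junction to the membrane. It had 1764, 1991 and 1706 counts in knockdown and 4671, 4276 and 4582 in control cells. All knockdown libraries lay below the control libraries. DMTN averaged 92.9 ± 5.20 CPM in knockdown and 225 ± 3.57 CPM in control cells, a log2 fold change of −1.27 ± 0.05 (adjusted p = 6.54e-07) and the deepest fall among the 9 genes. EPB41 (ENSG00000159023; chr1:28887091-29120046), whose product protein 4.1R stabilises the contact of spectrin with actin, had 1929, 1916 and 1706 counts in knockdown and 2611, 2671 and 2733 in control cells. The groups were again apart, by a smaller margin. EPB41 averaged 94.5 ± 3.79 CPM in knockdown and 133 ± 5.38 CPM in control cells, a log2 fold change of −0.50 ± 0.05 (adjusted p = 0.000114). After a correction for GC content and length its log2 fold change was −0.92, still in the same direction.

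ADD1 (ENSG00000087274; chr4:2843857-2930076) encodes alpha-adducin, which caps the fast-growing ends of actin filaments and recruits spectrin to them. It had 5073, 5256 and 4677 counts in knockdown and 4586, 4659 and 4693 in control cells, values that lie close together before scaling. After scaling it averaged 255 ± 6.87 CPM in knockdown and 232 ± 8.96 CPM in control cells, with the groups just apart. The log2 fold change of 0.14 ± 0.04 passed narrowly (adjusted p = 0.0415) and was not past the threshold under relative log expression scaling (adjusted p = 0.0526). Leaving out 1 library ended the call in 5 of 6 cases, with adjusted p values between 0.0303 and 0.156. TMOD3 (ENSG00000138594; chr15:51829628-51947295) encodes the broadly expressed tropomodulin, which caps the slow-growing ends. It had 324, 379 and 206 counts in knockdown and 265, 285 and 171 in control cells, and the groups overlapped. Its log2 fold change was 0.36 ± 0.26 (adjusted p = 0.488), between 0.16 without control replicate 3 and 0.55 without knockdown replicate 3, or 0.50 (95% interval 0.32 to 0.68, adjusted p = 5.61e-05) with the added number modelled.

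In all, 7 of the 9 genes passed the threshold of 0.05, 4 higher and 3 lower in knockdown cells, against 16.5% of all 28303 genes tested. The same 7 had libraries that did not overlap between the groups, which held for 30.7% of the genes tested. These 7 are also the members averaging 500 or more counts, and at that level 77.0% of genes passed (38.1% higher, 38.9% lower) and 79.2% did not overlap, so the number called is near its background. With the added number modelled, under a dispersion shared by all genes, all 9 passed, 5 higher and 4 lower. Of the 26055 genes fitted that way, 39.2% passed (19.7% higher, 19.6% lower). Without the narrow call of ADD1 the count is 6. Of the 4 broadly expressed members, 3 were higher and none was lower, while of the 5 red cell members SPTB was higher, ANK1, EPB41 and DMTN were lower and EPB42 did not pass. The classes were assigned with these results known, and the difference between them was not tested. The median log2 fold change of the 9 was 0.14, beside 0.02 for all genes tested. In bulk RNA, fewer cells of a type and less RNA per cell cannot be told apart.

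**Figure D2:**
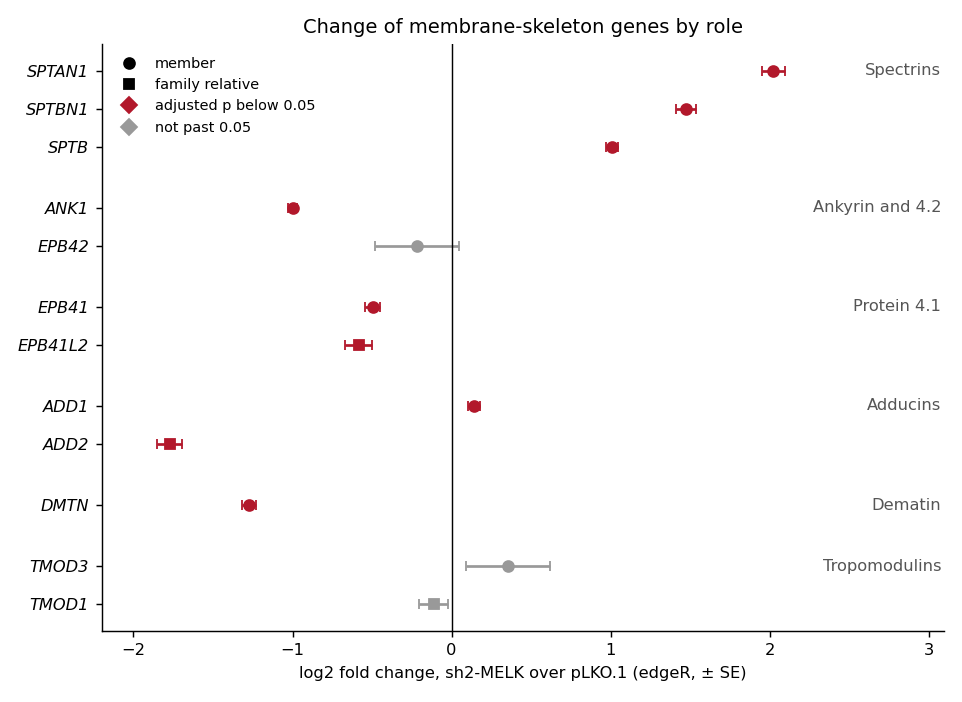
Log2 fold change of sh2-MELK over pLKO.1 (horizontal axis, ± SE from edgeR, 3 libraries a group) for the 9 genes (circles) and 3 relatives averaging 200 or more counts (squares), grouped by role; red marks an adjusted p below 0.05. Members run between −1.27 for DMTN and 2.02 for SPTAN1, and the relatives ADD2, EPB41L2 and TMOD1 all lie left of 0.

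Levels of different genes were compared as CPM per kilobase of the longest protein-coding transcript. In knockdown cells ADD1 led at 53.9, followed by ANK1 at 34.3, DMTN at 33.5, SPTAN1 at 29.9, SPTBN1 at 19.6, SPTB at 16.1, EPB41 at 15.7, EPB42 at 4.07 and TMOD3 at 1.87. In that order ANK1 and DMTN overlapped, as did SPTB and EPB41, and all other neighbours were apart. In control cells DMTN led at 81.1, followed by ANK1 at 68.7, ADD1 at 48.9, EPB41 at 22.2, SPTB at 8.01, SPTAN1 at 7.36, SPTBN1 at 7.05, EPB42 at 4.74 and TMOD3 at 1.46. There SPTB and SPTAN1 overlapped, as did SPTAN1 and SPTBN1, whereas SPTB (7.83 to 8.17) lay above SPTBN1 (6.68 to 7.63). So the spectrin chains lay at or above EPB41 in knockdown cells and below it in control cells. With the length of all exonic bases in place of the transcript, ANK1 came first in both groups, at 27.0 in knockdown and 53.9 in control cells.

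The close relatives of the 9 genes were mostly too low to follow. Of 20, 16 could be tested, 0 were higher and 3 lower, and 13 did not pass, with a median log2 fold change of 0.02. Of all genes tested, 16.5% were called. Of the 4 relatives averaging 500 or more counts, 0 were higher and 3 lower, a share near the 77.0% called at that level. ADD2, beta-adducin, the partner of ADD1 in red cells, had 691, 761 and 598 counts in knockdown and 2234, 2406 and 2521 in control cells, a log2 fold change of −1.77 ± 0.08 (adjusted p = 1.85e-06). EPB41L2, the general protein 4.1 relative, fell to 27.9 ± 2.56 CPM in knockdown cells, against 41.9 ± 2.05 CPM in control cells (log2 fold change −0.58 ± 0.08, adjusted p = 0.00134). TMOD1, the tropomodulin of red cells, averaged 42.5 ± 3.18 CPM in knockdown and 45.9 ± 4.70 CPM in control cells (log2 fold change −0.11 ± 0.09, adjusted p = 0.537), and −0.37 after the GC and length correction (adjusted p = 0.000419). ANK3, the broadly expressed ankyrin, had 1, 14 and 3 counts in knockdown and 11, 102 and 4 in control cells, within the range of the added number, so ANK1 was the better measured of these ankyrins.

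The contrast of isoforms was taken as the log2 ratio of the broadly expressed gene to its red cell relative within each library, with no length correction, so its difference between groups is what can be read. The ratio of SPTBN1 to SPTB was 0.29 ± 0.08 in knockdown and −0.18 ± 0.11 in control libraries (SD, n = 3 each; difference 0.47, two-sided exact permutation p = 0.1, adjusted 0.2). Both beta chains rose, the general chain by more. The ratio of ADD1 to ADD2, which in red cells pair with each other, was 2.88 ± 0.09 in knockdown and 0.96 ± 0.07 in control libraries (difference 1.91, exact permutation p = 0.1, adjusted 0.2). For these 2 pairs all knockdown ratios lay above all control ratios, and 0.1 is the smallest p that 3 libraries against 3 allow. The ratio of EPB41L2 to EPB41 was −1.76 ± 0.09 in knockdown and −1.67 ± 0.08 in control libraries (difference −0.09, exact permutation p = 0.3, adjusted 0.3). The ratio of TMOD3 to TMOD1 was −1.50 ± 0.30 in knockdown and −1.97 ± 0.50 in control libraries (difference 0.47, exact permutation p = 0.3, adjusted 0.3). Leaving out 1 library moved that difference between 0.18 without control replicate 3 and 0.64 without knockdown replicate 3. Both of these overlapped between groups, and the pair of ANK3 with ANK1 was not tested because ANK3 averaged under 100 counts. The p-values were adjusted over the 4 pairs tested.

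**Figure D3:**
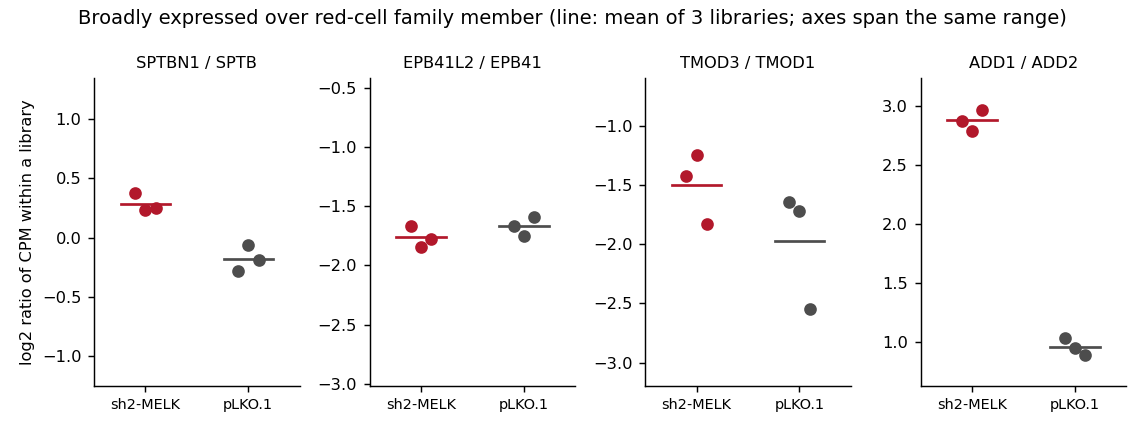
Log2 ratio of CPM of the broadly expressed gene to its red cell relative in each library (vertical axes, all spanning the same range), sh2-MELK left and pLKO.1 right; the line is the mean of 3 libraries. The groups are apart for SPTBN1 over SPTB (0.29 in knockdown, −0.18 in control) and for ADD1 over ADD2 (2.88 in knockdown, 0.96 in control), and overlap for the other pairs.

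Of 17 membrane proteins that the skeleton holds or sits beside, 1 was higher and 9 were lower, against 8.12% and 8.43% of all genes tested, with a median log2 fold change of −0.56. Of the 11 that average 500 or more counts, fitted among such genes alone, 2 were higher and 7 lower, where 38.1% and 38.9% of genes were. GYPC, glycophorin C, which anchors protein 4.1, had 3307, 3494 and 3598 counts in knockdown and 10959, 9507 and 10366 in control cells. It averaged 177 ± 11.9 CPM in knockdown and 512 ± 22.3 CPM in control cells (log2 fold change −1.53 ± 0.05, adjusted p = 6.39e-07), a deeper fall than that of EPB41. The other 3 most abundant genes of the list did not pass: SLC2A1, the glucose transporter, at −0.02 ± 0.03, BSG, basigin, at −0.01 ± 0.04 and STOM, stomatin, at 0.14 ± 0.04 (adjusted p between 0.0687 and 0.938). The signs of SLC2A1 and BSG turned with the scaling. STOM was −0.27 after the GC and length correction. The others are named after their values were seen. SLC4A1, the anion exchanger that ANK1 and EPB42 bind, fell to 31.7 ± 2.16 CPM in knockdown cells, against 46.9 ± 5.08 CPM in control cells (log2 fold change −0.56, adjusted p = 0.00303). RHAG, the Rh-associated glycoprotein, fell by 1.92 on the log2 scale, ICAM4 by 1.50 and the near-identical RHCE and RHD by 1.22 and 1.18, although reads of the last pair may be divided between them. CD47, the single gene that rose, had a log2 fold change of 0.64, which was 0.11 (adjusted p = 0.0640) after the GC and length correction.

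Of 9 genes for the short actin filaments, 5 were higher and 2 lower, with a median log2 fold change of 0.14. Of the 6 averaging 500 or more counts, 4 were higher and 1 lower, a share near the 77.0% called at that level. TPM4, a short tropomyosin, averaged 802 ± 24.7 CPM in knockdown and 414 ± 23.8 CPM in control cells (log2 fold change 0.95 ± 0.05, adjusted p = 2.82e-06). TPM3, another tropomyosin, averaged 516 ± 14.3 CPM in knockdown and 352 ± 28.1 CPM in control cells (log2 fold change 0.55 ± 0.06), or 0.25 after the GC and length correction. The actin genes ACTB and ACTG1, whose coding sequences are near-identical, had log2 fold changes of 0.14 ± 0.03 (adjusted p = 0.0142) and 0.23 ± 0.02. ACTB was not past the threshold with the replicate block (adjusted p = 0.0567) or without knockdown replicate 2, knockdown replicate 3 or control replicate 3 (adjusted p up to 0.0739). CAPZA1 and CAPZA2, both alpha subunits of the actin capping protein, went opposite ways, at −0.74 and 0.58, and were singled out after their values were seen.

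Of 12 regulators and proteases of spectrin, 5 were higher and 4 lower, with a median log2 fold change of 0.10. At 500 or more counts 4 of 9 were higher and 4 lower, beside the same 77.0%. CAPNS1, the small calpain subunit, averaged 309 ± 9.21 CPM in knockdown and 654 ± 5.77 CPM in control cells (log2 fold change −1.08 ± 0.03, adjusted p = 2.14e-07). CAPN1, the calpain protease that cuts spectrin, fell with it (log2 fold change −0.66 ± 0.04). CALM3, a calmodulin gene, was higher at 0.25 ± 0.02, and PRKACA, a kinase A catalytic subunit, lower at −0.45 ± 0.06. CAST, the calpain inhibitor, named after its value was seen, rose to 46.2 ± 0.402 CPM in knockdown cells, against 30.5 ± 2.06 CPM in control cells (log2 fold change 0.60, adjusted p = 0.000299), and was 0.19 after the GC and length correction (adjusted p = 0.0427). Among 5 FERM-type linkers of actin to the membrane, 1 was higher and 1 lower, with a median log2 fold change of 0.12. Of all genes tested, 16.5% were called. Of the 4 linkers averaging 500 or more counts, fitted among such genes alone, 2 were higher and 1 lower, beside the same 77.0%. MSN, moesin, rose to 2193 ± 31.2 CPM in knockdown cells, against 1356 ± 60.9 CPM in control cells (log2 fold change 0.69 ± 0.03). NHERF1, the scaffold that binds these linkers, fell (−0.59 ± 0.04), while EZR at −0.08 ± 0.05 and NF2 at 0.12 ± 0.04 did not pass, though both did after the GC and length correction, at −0.21 and 0.21.

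**Figure D4:**
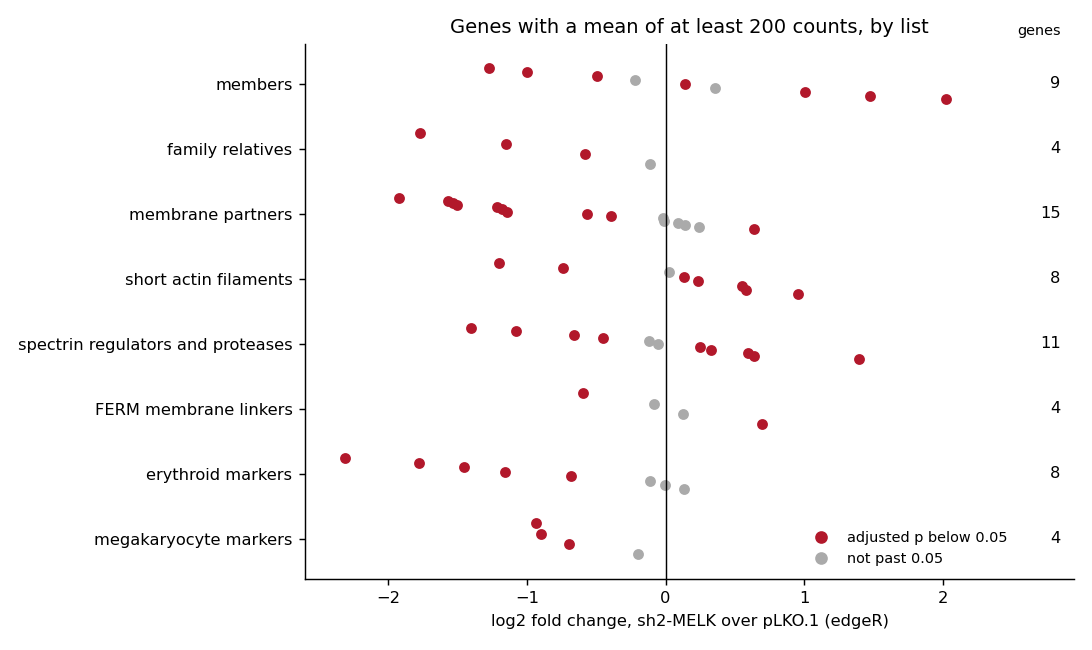
Log2 fold change of sh2-MELK over pLKO.1 (horizontal axis, edgeR) for every gene averaging 200 or more counts in 8 of the lists, 1 point per gene; red marks an adjusted p below 0.05, and the number of genes plotted stands at the right. Spectrins fill the right end of the members, while most called membrane partners lie left of 0, with CD47 (0.64) to the right.

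Lineage markers were followed in the same comparison, and their counts called stand beside 16.5% of all genes tested. Of those averaging 500 or more counts, fitted among such genes alone, 1 of 7 erythroid markers was higher and 5 were lower. Both such megakaryocyte markers (2 of 2) and all such myeloid and mast cell markers (5 of 5) were lower. The 1 such stromal, endothelial or lymphocyte marker was higher. At that level 77.0% of genes were called (38.1% higher, 38.9% lower). Of 11 erythroid markers, 0 were higher and 5 lower, with a median log2 fold change of −0.76, and their summed level was 326 to 331 CPM in knockdown and 578 to 633 CPM in control libraries. KLF1, the erythroid transcription factor, averaged 83.9 ± 4.94 CPM in knockdown and 229 ± 12.3 CPM in control cells (log2 fold change −1.45 ± 0.06). HBB, a globin chain, was lower at −0.68 ± 0.09, whereas ALAS2 (−0.11 ± 0.05) and TFRC (0.13 ± 0.05, or −0.28 after the GC and length correction) did not pass. The list shares 1 gene with the membrane partners. The 5 that passed moved in the direction of ANK1, DMTN and EPB41 and opposite to SPTB. With the added number modelled, 8 of the 11 were lower and 1 higher, where 19.6% and 19.7% of the 26055 genes fitted were. Of the 11 megakaryocyte markers, 9 could be tested, 0 were higher and 3 lower, and the list summed to 1119 to 1170 CPM in knockdown and 2093 to 2210 CPM in control libraries. ITGA2B (−0.93 ± 0.03), ITGB3 (−0.70 ± 0.06) and GP1BA (−0.90 ± 0.13) were the 3 that fell, and SELP (−0.20 ± 0.30) did not pass. ITGA2B was not called by limma-voom (adjusted p = 0.155). With the added number modelled, 6 of 9 markers were lower and 1 higher, beside the same 19.6% and 19.7%, and SELP was −0.56 (adjusted p = 9.16e-07). The part of these shifts in the values of the skeleton genes was not tested.

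Of 8 myeloid and mast cell markers, 1 was higher and 5 lower, and their summed level was 475 to 492 CPM in knockdown and 817 to 828 CPM in control libraries. HDC (−0.56 ± 0.03), CD33 (−0.50 ± 0.04), SPI1 (−1.13 ± 0.05) and TPSAB1 (−2.73 ± 0.10) fell, all 4 being among the most abundant of the list. CPA3, a mast cell gene singled out after its value was seen, rose (log2 fold change 0.90 ± 0.12, adjusted p = 0.00095). The mast cell genes of the list thus did not all move the same way. Of 8 stromal, endothelial and lymphocyte markers, 5 could be tested, of which PECAM1 alone rose (0.47 ± 0.06), and PECAM1 is also a platelet gene. Their summed level was 225 to 228 CPM in knockdown and 144 to 181 CPM in control libraries. COL1A1 (2.36 ± 0.74, adjusted p = 0.0715), COL1A2 (−0.80 ± 1.42) and CDH5 (−3.73 ± 1.83) averaged under 100 counts, where the added number weighs on them.

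GC content moved with the comparison as well. Over the 5031 genes of known sequence that averaged 500 or more counts, Spearman's rho between log2 fold change and GC content was −0.393, and that with transcript length 0.0419, both across genes that are not independent replicates. The members span that range, with 40.2% GC for EPB41, 53.5% for SPTAN1 and 60.4% for DMTN. Genes within 2 percentage points of GC and 1.5 times the length gave each member a local comparison. The 176 such genes around SPTAN1 had a median log2 fold change of −0.06, against its own 2.04 in the same fit. The 45 around SPTB had −0.23, against its own 1.03, and the 135 around EPB41 had 0.39, against its own −0.48. The 92 around SPTBN1 had −0.01, against its own 1.49, and the 359 around ADD1 had 0.05, against its own 0.16. The part of GC content in the change of each member was not tested. The 86 around ANK1 had −0.12 and the 428 around DMTN −0.20, against −0.98 and −1.26 for those genes themselves. After the correction the log2 fold changes were 2.06 for SPTAN1, 1.42 for SPTBN1, 1.23 for SPTB, −0.81 for ANK1, −1.10 for DMTN and 0.09 for ADD1.

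Genes whose pattern over the 6 libraries was closest to that of SPTAN1, by Euclidean distance of centred log2 CPM among the 5038 genes averaging 500 or more counts, were PROCR (distance 0.197), FAM107B (0.241) and NPC1 (0.250). Their log2 fold changes were 1.98 ± 0.13 for PROCR, 1.91 ± 0.08 for FAM107B and 1.92 ± 0.04 for NPC1, close to the 2.02 of SPTAN1. For ANK1 the closest were PGAM1 (0.0611), HNRNPAB (0.0729) and RPAP1 (0.0795). These fell by 1.00, 1.00 and 0.94 on the log2 scale. The distance was taken over 6 libraries in 2 groups, so genes with a group difference of like size come out close.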

How the data were processed

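RNA of 6 MEG-01 libraries was analysed from the whole-number count per gene that the authors deposited. The submitters' processing notes name FastQC, fastp, STAR, HTSeq, DESeq2, R 4.3.3 and the build GRCh38, without their roles. The sources used here give no strand setting, counting mode or annotation release. Of 61852 gene IDs, 61757 were found in the name table and 42054 had a symbol other than the ID itself. Coordinates, lengths and shared exons came from GENCODE release 29 on GRCh38, and promoter windows from RefSeq on GRCh38.p14, where ANK1 and DMTN windows are not used here.

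Groups were compared with edgeR 4.0.16 (TMM scaling, default low-count filter with a minimum count of 10, robust quasi-likelihood fit), and p-values were adjusted by Benjamini-Hochberg over the genes tested, with a threshold of 0.05. The SE of a log2 fold change is its size divided by the square root of F. CPM used TMM-scaled library sizes. To model the added number, each value was split into negative binomial reads and 1 of the values 0, 1, 2, 10 or 100 with equal chances, and groups were compared by a likelihood-ratio test. The dispersion of the reads was fixed for every gene at 0.0014, estimated over the 1808 genes averaging 2000 or more counts. P-values and intervals of that model therefore do not take in how much each gene itself varied. Other alternatives were DESeq2 1.42.0, limma-voom 3.58.1, other scalings and filters, a correction for GC content and length, a replicate block and leaving out each library. The scripts were tested on simulated data. P-values of the other tests reflect only how much these libraries vary.

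The 9 members, the relatives, the lists (membrane partners, short actin filaments, spectrin regulators and proteases, FERM membrane linkers, and erythroid, megakaryocyte, myeloid and mast cell, and stromal, endothelial and lymphocyte markers) and the motifs were chosen with earlier results of these data known. Named genes are the members, MELK, relatives averaging 200 or more counts, the 4 most abundant genes of each other list, and the 3 genes closest to SPTAN1 and to ANK1. Others are marked as singled out after their values were seen. Some genes that the rule names are not reported here, though list counts include them.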

Additional observations from a re-analysis of the deposited data

How the results depend on the processing

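SPTAN1, SPTBN1, SPTB, ANK1, EPB41 and DMTN kept their direction and their call under every alternative run, and 6 to 9 members were called. The number of genes called was 4683, 9576 with DESeq2 (4813 higher, 4763 lower) and 10222 with the added number modelled (5121 higher, 5101 lower). It lay between 3808 and 4064 without 1 library each, and library size scaling gave 2699 higher and 2073 lower, while the GC and length correction gave 1685 higher and 2176 lower. ADD1 lost its call under relative log expression scaling (0.14), and ranged between 0.12 and 0.17 without 1 library each. EPB42 ranged between −0.38 and 0.040 in the same way. With the added number modelled, EPB42 (−0.78) and TMOD3 (0.50) passed. The cause was not tested.

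The replicate numbers did not pair the samples: deviations of same-numbered libraries from their group means correlated at 0.0997, −0.0124 and −0.0801, and for some libraries another number correlated better. With the numbers as a replicate block, 4182 genes were called (2062 higher, 2120 lower), 6 members kept their call and ADD1, at 0.14, had an adjusted p of 0.0557.

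Among other named genes, direction turned for SLC2A1 (0.055 with library size scaling, −0.041 to 0.011 without 1 library each), BSG (0.060 with library size scaling, 0.0032 with the minimum mean of 500 counts, 0.17 with the GC and length correction, also with the block, −0.050 to 0.014 without 1 library each), STOM (−0.27 with the correction, also with the block), TFRC (−0.28 with the correction, also with the block), SELP (−0.37 to 0.059 without 1 library each) and COL1A2 (1.10 modelled, −1.26 to 0.50 without 1 library each). The isoform ratios kept their direction in all 32 alternatives. Of the counts over lists, 254 stayed within 1.5 times of the main count and 34 did not. The added number, with an SD of 38.9 counts, limits the precision of genes with low counts.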
